A study of Mus musculus with 14 samples.

Results

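The genes described here are 47 mouse genes of DNA replication and of the G1/S step, the point at which a cell commits to copying its genome. They came as a list of symbols, and each matched 1 row of a table of raw counts over 46078 genes. The libraries were made from NK (natural killer) cells and from ILC1s, the type 1 innate lymphoid cells, lymphocytes of one lineage group that depend on the cytokine interleukin 15 (IL-15), taken at an immature stage from the bone marrow of C57BL/6 mice aged 8 weeks. For each library 2000 cells were sorted. The gate for immature NK cells (iNK) was NK1.1+, DX5+, CD27+, CD3-, CD11b- and IL-7Ra-, and that for immature ILC1s (iILC1) was NK1.1+, CD49a+, IL-7Ra+ and CD3-. None of the 47 genes encodes a protein of these gates.

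All mice carried 1 floxed and 1 knockout allele of Il15 (Il-15-flox/KO). Mice with no further allele were the controls. The conditional knockout (cKO) mice carried Vav-Cre as well, a Cre under a promoter that works in the blood lineage from stem cells on. Control mice gave 3 libraries of each cell type and cKO mice 4 of each, which makes 14 libraries in 4 groups. The comparison of genotypes addressed how these cells differ when blood cells cannot make IL-15. Whether each library stands for its own mouse is not stated in the labels, and a p-value here therefore covers the spread among these libraries alone, which may be technical.

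A chromosome is copied from origins. In G1, the origin recognition complex, Cdc6 and Cdt1 load the ring of Mcm2 to Mcm7, and at the start of S phase Cdc45 and the GINS complex join this ring to make the active helicase. Polymerases primed by primase then copy both strands, with PCNA as a sliding clamp, while other enzymes supply nucleotides and rebuild chromatin behind the fork. The E2F transcription factors and cyclin E drive entry into S phase, and transcripts of most of these genes are known to be higher in dividing than in resting cells. In bone marrow, the immature stages of NK cells are known to divide more than the mature ones.

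Total counts were 6238016 to 8013984 in control iNK, 6254844 to 12572326 in cKO iNK, 3512796 to 4933284 in control iILC1 and 5478641 to 10308693 in cKO iILC1. Levels are given as CPM, the count scaled to library size and a TMM factor. Eomes, which marks NK cells, averaged 731 and 804 CPM in control and cKO iNK and 132 and 94.3 CPM in control and cKO iILC1. Cxcr6, which marks ILC1s, averaged 9.68, 11.6, 330.3 and 842 CPM in the same order, so that these 2 markers told the labelled cell types apart. Of 15 listed NK and ILC1 markers, the edgeR test used below called 5 higher and 2 lower in control iILC1 against iNK, and 8 did not pass. In cKO these counts were 6, 2 and 7. Il15 lay at 8.16 to 11.1 CPM in control iNK and 8.58 to 12.3 CPM in cKO iNK, and at 11.7 to 13.7 and 11.2 to 25.0 CPM in control and cKO iILC1. A count over the whole gene does not resolve the floxed part, so these values do not check the deletion. Summed counts of 1318 odour and pheromone receptor genes, which lymphocytes should not use, gave 1358 to 2988 CPM over the 14 libraries.

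Promoters were read from RefSeq (GRCm38.p6), whose table holds at least 1 for 40 of the 47 genes. They were searched on both strands, from 250 bases before to 50 bases after the start site, for the E2F-type motifs TTTCCCGC, TTTGGCGC and TTTCGCGC, which can overlap, and for the CCAAT box. An E2F-type match stood in 16 of the 40 (40.0%), against 483 of 17492 protein-coding genes (2.76%). A CCAAT match stood in 25 of the 40 (62.5%), against 42.3% of the protein-coding genes. RefSeq and the count table do not always place the start at the same base: for 23 of the 40 genes, some of the 250 upstream bases lie inside the gene as the count table bounds it. The sequences below, chosen to show a gene with E2F-type matches beside other called genes without one, are the part of the 250 upstream bases outside the gene, 5′ to 3′ on its own strand, with matches in capitals.
Mcm2 (chr6:88898781-88899030, minus strand): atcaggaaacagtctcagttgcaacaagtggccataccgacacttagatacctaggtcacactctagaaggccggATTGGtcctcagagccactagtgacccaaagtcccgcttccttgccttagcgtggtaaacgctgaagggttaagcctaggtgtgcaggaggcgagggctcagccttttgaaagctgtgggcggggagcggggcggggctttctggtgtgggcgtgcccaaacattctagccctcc
Mcm5 (chr8:75109259-75109508, plus strand): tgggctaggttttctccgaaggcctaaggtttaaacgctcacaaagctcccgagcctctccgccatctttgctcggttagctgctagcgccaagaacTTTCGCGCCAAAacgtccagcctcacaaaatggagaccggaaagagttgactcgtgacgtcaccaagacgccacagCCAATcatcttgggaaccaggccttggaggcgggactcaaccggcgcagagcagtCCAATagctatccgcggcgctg
Rrm2 (chr12:24708004-24708240, plus strand): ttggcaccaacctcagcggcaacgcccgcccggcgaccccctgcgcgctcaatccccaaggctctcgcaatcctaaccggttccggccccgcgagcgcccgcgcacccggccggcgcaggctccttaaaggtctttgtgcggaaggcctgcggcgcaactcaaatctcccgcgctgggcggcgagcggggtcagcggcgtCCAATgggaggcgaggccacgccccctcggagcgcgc
Ccne1 (chr7:38107535-38107740, minus strand): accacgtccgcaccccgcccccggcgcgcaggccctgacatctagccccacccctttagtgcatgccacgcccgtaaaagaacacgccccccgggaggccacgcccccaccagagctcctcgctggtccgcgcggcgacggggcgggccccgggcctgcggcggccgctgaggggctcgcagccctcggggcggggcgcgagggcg
Pcna (chr2:132253315-132253430, minus strand): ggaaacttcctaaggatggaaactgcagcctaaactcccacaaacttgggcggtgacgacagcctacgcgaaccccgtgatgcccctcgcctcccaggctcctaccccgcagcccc
In Mcm5, which encodes a subunit of the helicase ring, the E2F-type matches overlap in 1 run that lies 5′ of the CCAAT boxes. The other 4 genes had no E2F-type match in the whole window, and in the printed bases Mcm2 and Rrm2 hold 1 CCAAT box each, that of Mcm2 on the opposite strand, while the 1 CCAAT match of Pcna lies in its unprinted bases. The RefSeq window of E2f1 lies wholly inside the gene and is not printed. A match describes letters, and its absence says nothing of the factor.

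The 47 genes were highest in control iNK. Their summed level was 5011, 5161 and 6437 CPM in the 3 control iNK libraries, 2807 to 3698 CPM in cKO iNK, 2205 to 2939 CPM in control iILC1 and 2092 to 2826 CPM in cKO iILC1. For 35 of the 47, every control iNK library lay above all 11 other libraries, against 2.01% of all genes tested. Control iNK replicate 3 was the highest of the 14 libraries for 38 of the 47, against 5.89% of all genes. It also had the most receptor background of its group (2435 CPM, against 1358 and 1567 CPM), so results are also given without it.

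**Figure D1:**
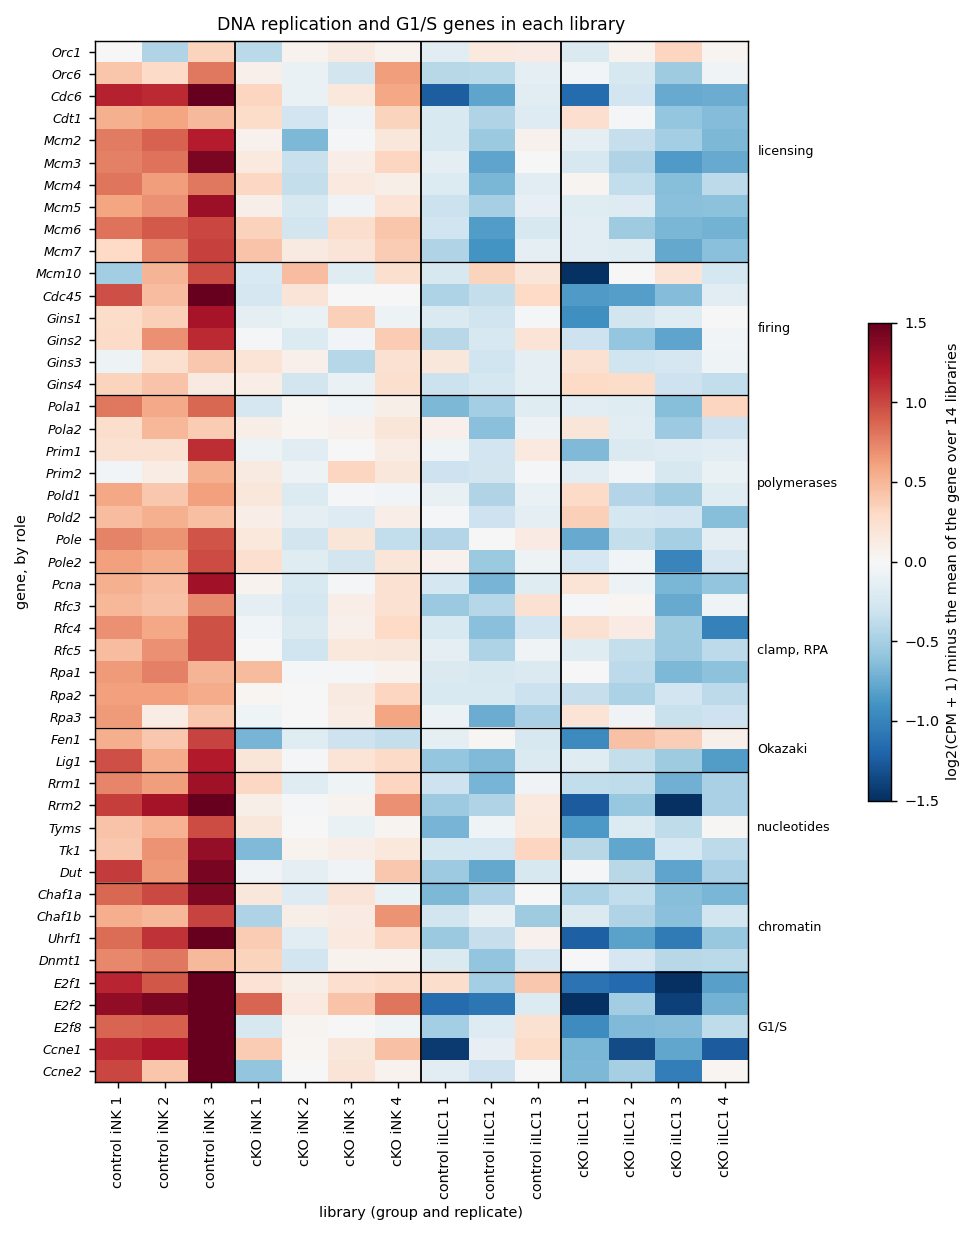
Level of each of the 47 genes in each of the 14 libraries, as log2(CPM + 1) relative to the mean of the gene over all libraries, with genes in rows by role and libraries in columns by group. The 3 control iNK columns are the highest for most genes, and the cKO iNK columns lie between them and the iILC1 columns.

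Per kilobase of exon, 3 subunits of the Mcm ring were the most abundant members in control iNK, Mcm6 at 125, Mcm5 at 96.8 and Mcm2 at 83.9 CPM per kilobase, followed by the clamp Pcna at 81.9. The lowest were Orc1 at 4.46, Gins2 at 3.48 and Fen1 at 1.8 CPM per kilobase. The same gene, Mcm6, led and Fen1 was last in cKO iILC1, at 46.6 and 1.05 CPM per kilobase. Silent receptor genes had a 95th percentile of 3.54 to 4.84 CPM per kilobase, depending on the group. Above it lay 45 of the 47 members in control iNK, 42 in cKO iNK, 37 in control iILC1 and 33 in cKO iILC1. The exons of 14 members share bases with another gene, and without strand in the counts their reads cannot be told apart. For Fen1 this was 84.2% of its exon bases and for Gins2 67.3%, so the levels and places of these genes in the order are uncertain. Of the genes called lower in cKO iNK below, Chaf1a shared 18.7%, Cdc45 9.28% and E2f8 5.03%. Among others called between cell types, Ccne2, Rfc4, Mcm7 and Rfc5 shared 10.7% to 17.4%, and Lig1, Tk1, Rpa1 and Pole 5.79% or less. In contrast, 33 members shared none.

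In cKO iNK the replication and G1/S genes were lower than in control iNK. The estimate was below 0 for 47 of the 47, against 44.9% of all genes, with a median log2 fold change of −0.73, against a median of 0.06 over all genes tested. edgeR's quasi-likelihood test with Benjamini-Hochberg adjustment over 26990 genes called 10 of the 47 lower and 0 higher, against 0.259% of all genes called lower and 0.148% higher. The 3 control libraries lay wholly above the 4 cKO libraries for 36 of the 47, against 4.75% of all genes. At an unadjusted p under 0.05, 37 of the 47 were lower, against 4% of all genes. Of the 8 roles, origin licensing had 2 of 10 called, origin firing 1 of 6, the polymerases and primase 0 of 8, the clamp, its loader and the single-strand binding proteins 0 of 7, Okazaki fragment maturation 0 of 2, nucleotide supply 2 of 5, chromatin and methylation 2 of 4 and G1/S control 3 of 5. In bulk samples, fewer cells of a type and less RNA per cell cannot be told apart.

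Among the licensing genes, Cdc6 and Mcm2 fell. Cdc6, which loads the Mcm ring (ENSMUSG00000017499, chromosome 11, 98907801 to 98923940, plus strand), was at 45.8, 44.5 and 78.2 CPM in control and 25.4, 18.6, 22.5 and 30.3 CPM in cKO. Mcm2, a subunit of the ring (ENSMUSG00000002870, chromosome 6, 88883475 to 88898780, minus strand), was at 249, 269 and 329.95 CPM in control and 151, 90.8, 142 and 164 CPM in cKO. The genotypes did not overlap for either gene, and control replicate 3 was the highest library of both. The log2 fold change was −1.21 with an SE of 0.265 (adjusted p = 0.0267) for Cdc6 and −1.05 with an SE of 0.225 (adjusted p = 0.0222) for Mcm2. The other 5 ring subunits did not pass. Mcm3 was at 203, 212 and 319.6 CPM in control and 133, 94.8, 129 and 149.6 CPM in cKO (−0.95, adjusted p = 0.0604). Mcm5 was at 269, 288 and 437 CPM in control and 189.8, 152, 172 and 206 CPM in cKO (−0.88, adjusted p = 0.0686). Mcm6 was at 545, 587 and 619 CPM in control and 392, 255, 369.9 and 412 CPM in cKO (−0.71, adjusted p = 0.272). In Mcm3, Mcm5 and Mcm6 every control library lay above every cKO library. Mcm4 was at 293, 258 and 290.1 CPM in control and 207, 130.3, 185 and 177 CPM in cKO (−0.68, adjusted p = 0.273). Mcm7 was at 176, 238 and 292 CPM in control and 192, 156, 163 and 186 CPM in cKO (−0.43, adjusted p = 0.673). Mcm7 was the one subunit of the ring whose genotypes overlapped. Cdt1, which loads the ring with Cdc6, was at 81.99, 85.1 and 79.2 CPM in control and 68.7, 46.03, 54.3 and 71.5 CPM in cKO (−0.45, adjusted p = 0.639), with the genotypes apart. Of the origin recognition complex, which marks the origins, Orc1 averaged 15.5 CPM in control and 15.3 CPM in cKO (−0.02, adjusted p = 0.989), the estimate nearest to 0 of the 47. Orc6 averaged 37.6 and 28.4 CPM (−0.40, adjusted p = 0.714).

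Of the genes that turn the loaded ring into a helicase, Cdc45 fell. Cdc45 (ENSMUSG00000000028, chromosome 16, 18780447 to 18811987, minus strand) was at 45.8, 32.1 and 73.3 CPM in control and 19.1, 26.5, 23.00 and 23.1 CPM in cKO, a log2 fold change of −1.13 with an SE of 0.26 (adjusted p = 0.0365). Control replicate 3 was again the highest, and no cKO library reached the lowest control library. The 4 GINS subunits, which join Cdc45 at the ring, had estimates from −0.75 (Gins2) to −0.17 (Gins3), and none was called. Gins1 averaged 12.4 CPM in control and 7.47 CPM in cKO, and Gins4 56.05 and 45.3 CPM. Mcm10, which helps to start unwinding, averaged 51.9 and 40.5 CPM (−0.35, adjusted p = 0.847).

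None of the polymerase and primase genes passed. Pole, the catalytic subunit of the leading-strand polymerase, was at 98.4, 93.7 and 113 CPM in control and 65.3, 48.3, 66.4 and 44.97 CPM in cKO (−0.86, adjusted p = 0.0646). Pola1, the catalytic subunit of the polymerase that starts each fragment with primase, was at 118, 100.2 and 123 CPM in control and 56.3, 68.1, 64.9 and 71.8 CPM in cKO (−0.80, adjusted p = 0.112). Both genes had their genotypes apart. The other 6 genes of this group, Pola2, Prim1, Prim2, Pold1, Pold2 and Pole2, had estimates from −0.74 (Pole2) to −0.08 (Prim2).

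The clamp, its loader and the single-strand binding proteins did not pass either. The clamp Pcna was at 164, 156 and 270.3 CPM in control and 117, 95.7, 110.3 and 132 CPM in cKO, a log2 fold change of −0.79 with an SE of 0.237 (adjusted p = 0.208). The clamp loader gene Rfc4 was at 39.8, 37.00 and 48.5 CPM in control and 23.7, 20.8, 25.9 and 30.2 CPM in cKO (−0.73, adjusted p = 0.368). Its partner Rfc5 was at 84.2, 98.2 and 119.6 CPM in control and 60.4, 49.2, 68.2 and 68.8 CPM in cKO (−0.71, adjusted p = 0.164). In all of Pcna, Rfc4 and Rfc5 the genotypes were apart, and control replicate 3 was the highest library. Of the proteins that coat single-stranded DNA, Rpa1 was at 247, 269 and 226 CPM in control and 221, 155, 156 and 165 CPM in cKO (−0.50, adjusted p = 0.528). Rpa2 was at 126, 126 and 121 CPM in control and 83.7, 81.7, 90.2 and 103 CPM in cKO (−0.47, adjusted p = 0.468). In these genes control replicate 3 was the lowest control library, though still above all cKO libraries. Rfc3 and Rpa3 had estimates of −0.59 and −0.22. For the joining of Okazaki fragments, the ligase gene Lig1 was at 117, 87.8 and 137 CPM in control and 67.1, 58.2, 68.8 and 72.5 CPM in cKO (−0.77, adjusted p = 0.121). The nuclease gene Fen1 averaged 4.37 and 1.58 CPM (−1.45, adjusted p = 0.321), with 6 reads in the lowest of the 14 libraries.

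Of the genes of nucleotide supply, Rrm2 and Dut fell. Rrm2, the regulated subunit of ribonucleotide reductase (ENSMUSG00000020649, chromosome 12, 24708241 to 24714146, plus strand), was at 107, 124 and 197 CPM in control and 55.1, 51.3, 53.9 and 83.97 CPM in cKO. Dut, which removes dUTP so that uracil stays out of DNA (ENSMUSG00000027203, chromosome 2, 125247190 to 125258608, plus strand), was at 73.7, 55.7 and 95.96 CPM in control and 33.96, 31.9, 33.8 and 46.9 CPM in cKO. The genotypes of each were apart, and cKO replicate 4 was the highest cKO library for both. The log2 fold change was −1.22 with an SE of 0.275 (adjusted p = 0.0344) for Rrm2 and −1.03 with an SE of 0.229 (adjusted p = 0.0291) for Dut. The other reductase subunit, Rrm1, was at 206, 191 and 301 CPM in control and 153, 109, 119 and 156 CPM in cKO (−0.79, adjusted p = 0.138). The thymidine kinase gene Tk1 was at 42.01, 50.9 and 79.8 CPM in control and 19.6, 32.6, 33.9 and 35.3 CPM in cKO (−0.92, adjusted p = 0.106). Both had their genotypes apart without passing the test. Tyms, which makes thymidylate, averaged 78.7 and 50.5 CPM (−0.64, adjusted p = 0.387).

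Of the genes that rebuild chromatin and methylation at the fork, Chaf1a and Uhrf1 fell. Chaf1a, the large subunit of the histone chaperone that places new histones (ENSMUSG00000002835, chromosome 17, 56040416 to 56068026, plus strand), was at 47.8, 52.2 and 69.9 CPM in control and 29.2, 22.5, 29.6 and 24.02 CPM in cKO. Uhrf1, which brings the maintenance methyltransferase to copied DNA (ENSMUSG00000001228, chromosome 17, 56303321 to 56323486, plus strand), was at 134, 159 and 275 CPM in control and 96.97, 66.3, 82.3 and 92.4 CPM in cKO. In both genes the lowest control library exceeded the highest cKO library, and the log2 fold changes were −1.11 with an SE of 0.22 (adjusted p = 0.01) and −1.16 with an SE of 0.237 (adjusted p = 0.0122). Chaf1b, another subunit of the chaperone, was at 33.3, 32.1 and 46.4 CPM in control and 16.1, 23.99, 24.6 and 36.5 CPM in cKO (−0.55, adjusted p = 0.581), and its genotypes overlapped. The methyltransferase gene Dnmt1 was at 499, 524 and 424 CPM in control and 382, 247, 315 and 314 CPM in cKO (−0.62, adjusted p = 0.37), with control replicate 3 the lowest control library.

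Of the G1/S regulators, E2f1, E2f8 and Ccne1 fell. E2f1, an activating E2F transcription factor (ENSMUSG00000027490, chromosome 2, 154559407 to 154569892, minus strand), was at 39.04, 33.7 and 67.8 CPM in control and 20.04, 18.3, 20.7 and 21.1 CPM in cKO. E2f8, a repressing E2F (ENSMUSG00000046179, chromosome 7, 48866429 to 48881596, minus strand), was at 26.1, 26.5 and 44.3 CPM in control and 11.5, 14.1, 13.6 and 13.1 CPM in cKO. Ccne1, a cyclin E gene (ENSMUSG00000002068, chromosome 7, 38097984 to 38107534, minus strand), was at 34.2, 36.5 and 63.02 CPM in control and 20.2, 15.5, 17.3 and 21.04 CPM in cKO. The cKO libraries lay close together for these genes, and control replicate 3 stood above the other 2 control libraries. The log2 fold changes were −1.22 with an SE of 0.273 (adjusted p = 0.0292), −1.30 with an SE of 0.261 (adjusted p = 0.0107) and −1.27 with an SE of 0.295 (adjusted p = 0.0436). The other cyclin E gene, Ccne2, was at 24.7, 16.05 and 37.6 CPM in control and 7.49, 11.9, 13.6 and 12.3 CPM in cKO (−1.20, adjusted p = 0.0756). E2f2, another activating E2F, was at 55.3, 58.5 and 67.3 CPM in control and 40.1, 23.8, 29.1 and 38.2 CPM in cKO (−0.88, adjusted p = 0.208). Both had their genotypes apart.

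**Figure D2:**
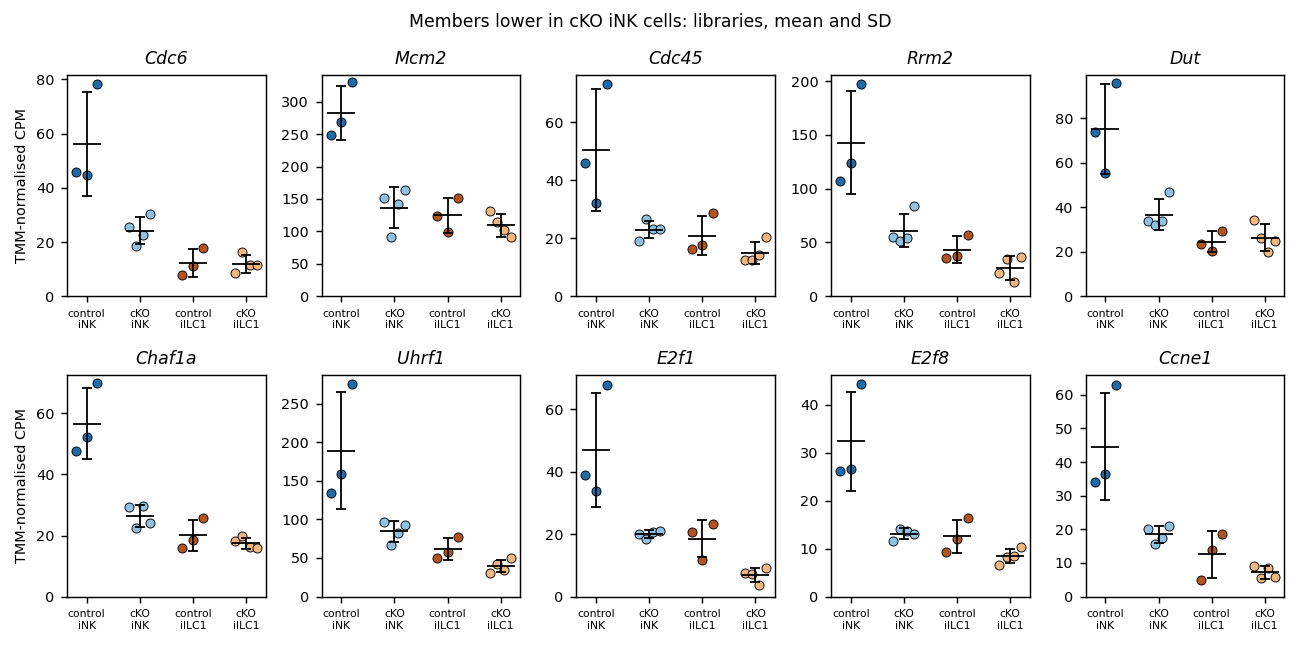
CPM of the 10 genes that fell in cKO iNK, in each library (points) with the group mean (long bar) and SD (error bar), on linear axes that start at 0. For all 10, the 3 control iNK points lie above the 4 cKO iNK points, and control iNK replicate 3 is the top point.

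These calls rested on few libraries. Without control iNK replicate 3, 0 of the 47 were called and the median was −0.55, while 0.182% of all genes were called lower, against 0.259% with all libraries. Without control iNK replicate 1 or 2, 9 and 8 were called, against 0.2% and 0.189% of all genes called lower. Without cKO iNK replicate 1, 2 or 3, 2 were called each time, without cKO iNK replicate 4 there were 6, and no library left out gave a higher call. Over all genes, 0.141%, 0.144%, 0.137% and 0.182% were called lower without these 4 cKO libraries in turn. DESeq2's Wald test called 23 lower and 0 higher, against 0.767% of all genes lower. Beside the fall, B-lineage markers moved the other way: 7 of 15 rose in cKO iNK, and their summed level was 84.3 to 107 CPM in control and 379 to 520.2 CPM in cKO. Cd79a, a subunit of the B cell receptor, averaged 3.02 CPM in control and 36.6 CPM in cKO, and none of the 15 was at 0 in any iNK library. Erythroid markers summed to 397 to 451 CPM in control and 325 to 937 CPM in cKO, with 0 of 15 called. Their mean log2(CPM + 1) was 1.98 to 2.56 in control and 3.07 to 4.48 in cKO, with 14 of 15 estimates above 0 (median 1.21) and 6 higher at an unadjusted p under 0.05. Stem and progenitor markers summed to 103 to 169 CPM in control and 196 to 233 CPM in cKO, also apart, with 5 of 6 estimates above 0 and 0 called. Receptor background lay at 1358 to 2435 CPM and 1686 to 2544 CPM. The part of other cells and of background in the fall was not tested. With background as a covariate 24 members were lower and 0 higher, but calls rose over all genes too, from 110 to 398 of 26990, of which 234 were lower (0.867%). Of the 10 called genes, E2f8 was below the 95th percentile of receptor genes in cKO iNK per kilobase of exon.

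In iILC1 none of these genes passed the test of genotype. edgeR called 0 of the 47, against 0.0259% of all genes called lower and 0.0222% called higher, and DESeq2 called 1. At an unadjusted p under 0.05, 5 were lower (Rrm2, Uhrf1, E2f1, E2f8 and Ccne1) and 0 higher, against 1.84% of all genes lower. The estimate was below 0 for 28 of the 47, against 48.4% of all genes, with a median log2 fold change of −0.09, against 0.01 over all genes. The libraries of control lay wholly above those of cKO for 2 of the 47, E2f1 and Uhrf1, against 2.82% of all genes. B-lineage markers summed to 192 to 262 CPM in control and 345 to 478 CPM in cKO. Of these 15 markers, 1 was called higher and 0 lower, with 9 estimates below 0 and 6 above (median −0.10). Receptor background was 2126 to 2988 and 1539 to 2873 CPM. Stem and progenitor markers summed to 191 to 245 CPM in control and 264 to 336 CPM in cKO, with 0 of 6 called. T cell markers summed to 564 to 932 and 477 to 936 CPM. Of the 8 tested, 6 had an estimate below 0, 1 was called lower and 0 higher. Granulocyte and monocyte markers summed to 69.4 to 87.2 and 81.3 to 386 CPM. Of the 11 tested, 7 had an estimate above 0 and 4 below (median 1.54), with 0 called. Erythroid markers summed to 291 to 475 and 295 to 557 CPM, with 0 of 15 called. The part of these in the values was not tested.

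E2f1 and Ccne1, of the G1/S regulators, had the lowest estimates of the 47. E2f1, the gene that DESeq2 called, was at 20.8, 11.7 and 23.1 CPM in control and 7.39, 7.1, 3.82 and 9.28 CPM in cKO, a log2 fold change of −1.41 with an SE of 0.295 (adjusted p = 0.066) by edgeR. Ccne1 was at 4.97, 13.9 and 18.7 CPM in control and 9.08, 5.39, 8.43 and 5.85 CPM in cKO (−0.83, adjusted p = 0.982). E2f8 was at 9.36, 11.9 and 16.3 CPM in control and 6.66, 8.33, 8.43 and 10.3 CPM in cKO (−0.58, adjusted p = 0.982). In E2f1 all control libraries were above all cKO libraries, and in Ccne1 the lowest library was a control. E2f2 was at 9.07, 9.54 and 18.5 CPM in control and 6.78, 14.6, 7.48 and 12.7 CPM in cKO (−0.26, adjusted p = 0.982). Ccne2 was at 10.5, 9.34 and 11.7 CPM in control and 7.02, 8.08, 5.25 and 12.1 CPM in cKO (−0.37, adjusted p = 0.982). These ranges overlapped.

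The licensing genes had estimates on either side of 0. Cdc6 was at 7.9, 11.1 and 17.8 CPM in control and 8.48, 16.2, 11.5 and 11.6 CPM in cKO (−0.06, adjusted p = 0.991). Cdt1 was at 47.97, 40.9 and 49.3 CPM in control and 67.5, 55.3, 37.4 and 35.5 CPM in cKO (0.09, adjusted p = 0.985). Mcm2 was at 124, 98.6 and 151 CPM in control and 132, 114, 102 and 90.6 CPM in cKO (−0.18, adjusted p = 0.982). For each the genotypes overlapped, as they did for the rest of the ring. Mcm3 was at 109, 68.97 and 119.99 CPM in control and 101, 87.3, 66.2 and 70.7 CPM in cKO. Mcm4 was at 145, 104 and 148 CPM in control and 171, 129.6, 107 and 127 CPM in cKO. Mcm5 was at 143, 126 and 164 CPM in control and 158, 156, 116 and 116 CPM in cKO (−0.08, adjusted p = 0.986). The last is the gene with E2F-type matches printed above. Mcm6 was at 252, 172 and 261 CPM in control and 275, 214, 192 and 189 CPM in cKO. Mcm7 was at 104, 76.3 and 129.9 CPM in control and 128, 126, 83.03 and 92.2 CPM in cKO. The estimates of the ring ran from −0.29 (Mcm3) to 0.05 (Mcm7). Cdc45, of the active helicase, was at 16.4, 17.7 and 28.6 CPM in control and 12.4, 12.5, 14.3 and 20.3 CPM in cKO (−0.50, adjusted p = 0.982).

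The genes of the fork itself also overlapped between genotypes in iILC1. Pcna was at 93.9, 69.2 and 99.5 CPM in control and 129.8, 107, 69.8 and 74.2 CPM in cKO (0.12, adjusted p = 0.985). Pola1 was at 41.8, 47.1 and 59.2 CPM in control and 60.4, 59.5, 42.8 and 84.8 CPM in cKO (0.32, adjusted p = 0.982). Pole was at 42.7, 58.2 and 63.7 CPM in control and 34.3, 45.4, 41.04 and 53.01 CPM in cKO (−0.34, adjusted p = 0.982). The sign of the estimate differed among these genes. Rfc4 was at 20.8, 15.5 and 19.8 CPM in control and 28.7, 26.7, 16.5 and 11.6 CPM in cKO. Rfc5 was at 54.7, 43.9 and 58.4 CPM in control and 53.4, 47.4, 41.5 and 46.1 CPM in cKO. Lig1 was at 39.2, 37.2 and 50.9 CPM in control and 52.1, 46.2, 40.6 and 32.7 CPM in cKO. The loader and the ligase had estimates from −0.15 (Rfc5) to 0.17 (Rfc4). Rpa1 was at 136, 134 and 136 CPM in control and 158, 120.1, 99.3 and 103 CPM in cKO. Rpa2 was at 69.9, 69.96 and 65.4 CPM in control and 64.4, 58.9, 67.1 and 62.4 CPM in cKO. Both single-strand binding genes had estimates below 0 (−0.17 and −0.11).

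Of the genes of nucleotide supply and chromatin, Rrm2 and Uhrf1 had the lowest estimates in iILC1, without passing. Rrm2 was at 35.1, 37.6 and 57.3 CPM in control and 21.2, 34.7, 13.5 and 36.7 CPM in cKO (−0.71, adjusted p = 0.982). Rrm1 was at 100.03, 75.7 and 119 CPM in control and 95.7, 94.8, 74.6 and 88.5 CPM in cKO (−0.15, adjusted p = 0.983). Tk1 was at 26.03, 26.04 and 39.6 CPM in control and 23.4, 17.9, 26.1 and 23.8 CPM in cKO (−0.43, adjusted p = 0.982). Dut differed from these in the sign of its estimate. It was at 23.7, 20.3 and 29.5 CPM in control and 34.4, 26.1, 19.9 and 24.8 CPM in cKO (0.10, adjusted p = 0.985). Uhrf1 was at 50.01, 58.2 and 77.7 CPM in control and 31.01, 42.00, 34.99 and 49.6 CPM in cKO (−0.66, adjusted p = 0.982), with the genotypes apart. Chaf1a was at 15.8, 18.5 and 25.8 CPM in control and 18.3, 19.7, 16.2 and 15.8 CPM in cKO (−0.20, adjusted p = 0.982). Chaf1b was at 18.4, 20.7 and 15.2 CPM in control and 19.3, 16.2, 14.2 and 18.3 CPM in cKO (−0.09, adjusted p = 0.986). Both chaperone genes overlapped between genotypes, and so did the methyltransferase gene. Dnmt1 was at 261, 201 and 254 CPM in control and 302, 254, 228 and 229 CPM in cKO (0.09, adjusted p = 0.985). The other 17 members had estimates from −0.39 (Mcm10) to 0.35 (Rpa3).

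**Figure D3:**
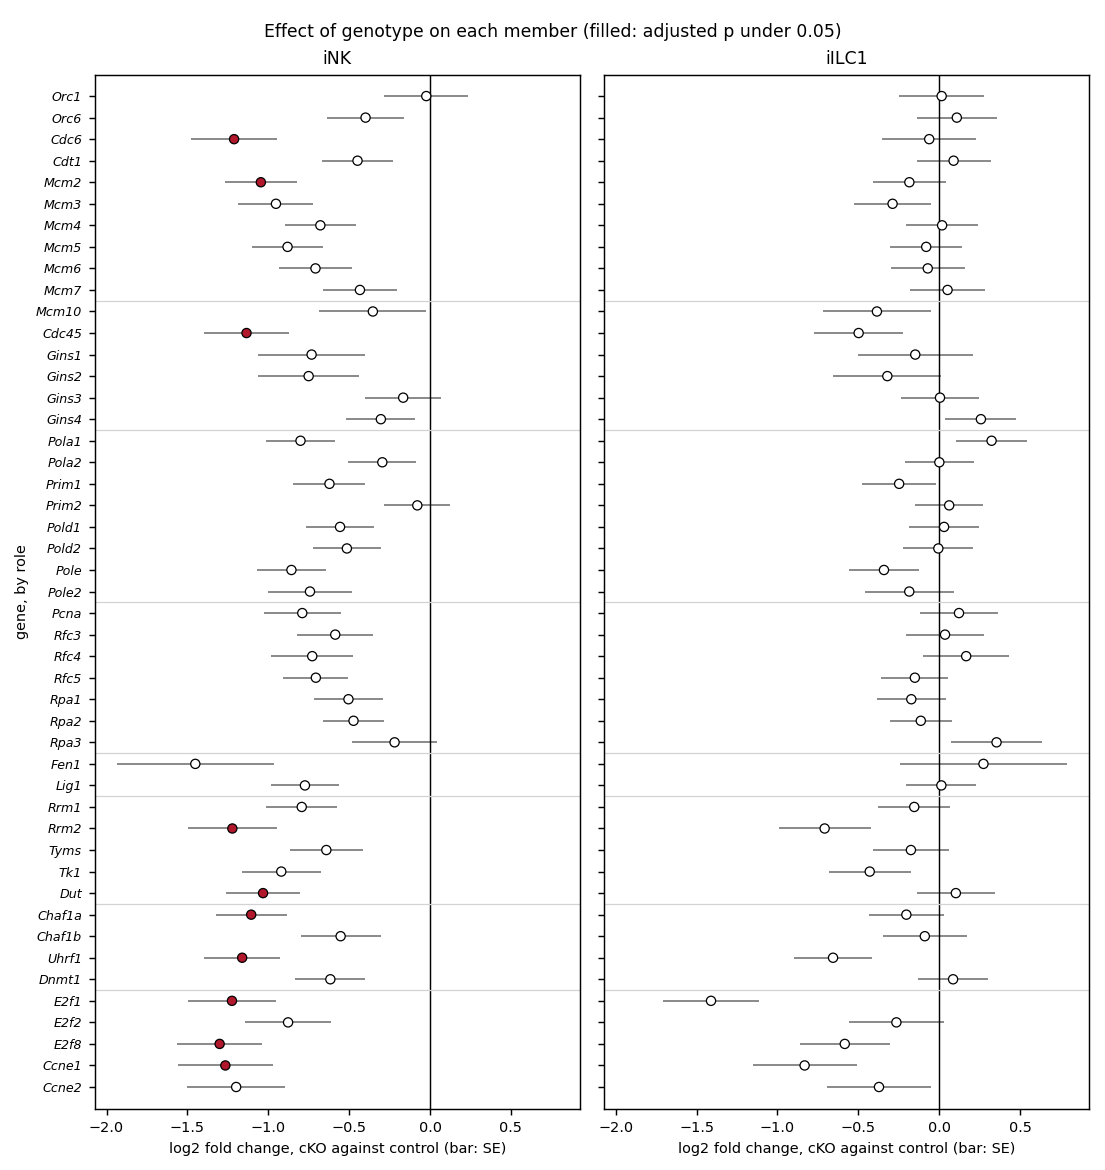
Log2 fold change of each of the 47 genes for cKO against control, in iNK on the left and iILC1 on the right on the same scale, with genes in rows by role, bars for SE and filled points for an adjusted p under 0.05. In iNK every point lies below 0 and 10 are filled, and in iILC1 the points lie on both sides of 0 and none is filled.

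No member passed the test of a difference between these genotype effects. In the test of genotype by cell type, coded as the effect in iILC1 minus that in iNK, edgeR called 0 of the 47, against 0.0222% of all genes called higher and 0.0556% lower, and DESeq2 called 0. At an unadjusted p under 0.05, 12 of the 47 were higher and 0 lower, against 3.4% of all genes higher. The estimate was below 0 for 2 of the 47, against 51.7% of all genes, with a median of 0.56. The estimates had wide errors: for Mcm2 the value was 0.86 with an SE of 0.322 (adjusted p = 0.709), for Cdc6 1.15 with an SE of 0.395 (adjusted p = 0.65) and for Chaf1a 0.90 with an SE of 0.322 (adjusted p = 0.709). For E2f1, lower in the estimates of both cell types, it was −0.19 with an SE of 0.401 (adjusted p = 0.91).

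In control mice the genes were lower in iILC1 than in iNK. edgeR called 30 of the 47 lower and 0 higher, against 3.16% of all genes called lower and 0.945% higher. The estimate was below 0 for 46, against 42.6% of all genes, with a median of −1.04, against 0.16 over all genes. The groups did not overlap for 43 of the 47, against 13% of all genes. Of the roles, origin licensing had 8 of 10 called, origin firing 1 of 6, polymerases and primase 2 of 8, the clamp group 5 of 7, Okazaki fragment maturation 1 of 2, nucleotide supply 4 of 5, and chromatin and G1/S control all of their 4 and 5. These groups were sorted through different gates, and the control iILC1 libraries were the shallowest, so the gate, the depth and the cell type cannot be told apart.

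Receptor background was 1358 to 2435 CPM in control iNK and 2126 to 2988 CPM in control iILC1, B-lineage markers summed to 84.3 to 107 and 192 to 262 CPM, and T cell markers to 460 to 745 and 564 to 932 CPM. Of the 8 T cell markers tested, 3 were called higher in iILC1 and 0 lower. Erythroid markers summed to 397 to 451 and 291 to 475 CPM, with 13 of 15 estimates above 0 and 0 called. Stem and progenitor markers summed to 103 to 169 and 191 to 245 CPM. Granulocyte and monocyte markers went the other way, at 123 to 386 CPM in control iNK and 69.4 to 87.2 CPM in control iILC1. Of the 11 of them tested, 8 had an estimate below 0 and 3 above, with 1 called higher and 0 lower. The part of background and of all these markers in the difference was not tested. With the background as a covariate 31 members were called, 27 of them the same, against 1.79% of all genes called lower. Of the 30 called, 6 (Cdc6, Chaf1b, E2f2, E2f8, Ccne1 and Ccne2) were below the 95th percentile of receptor genes in control iILC1, 4.84 CPM per kilobase, so that their levels there lie within the range of background.

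The licensing genes called were Cdc6, Cdt1 and the 6 ring subunits. All of their control iILC1 libraries lay below all control iNK libraries. The log2 fold change was −2.17 with an SE of 0.307 (adjusted p = 2.35e-05) for Cdc6 and −1.18 with an SE of 0.246 (adjusted p = 0.00355) for Mcm2. The ring ran from −1.35 (Mcm6, adjusted p = 0.000907) to −1.08 (Mcm4, adjusted p = 0.00606), with Mcm5 at −1.20 (adjusted p = 0.00236). Cdt1 changed by −0.83 (adjusted p = 0.0464), and Cdc45, the one gene of origin firing called, by −1.26 (adjusted p = 0.00892). Of the fork genes, Pola1 changed by −1.20 (adjusted p = 0.00192) and Pole by −0.89 (adjusted p = 0.0239). The clamp Pcna changed by −1.17 (adjusted p = 0.00693), its loader genes Rfc4 and Rfc5 by −1.16 (adjusted p = 0.0147) and −0.94 (adjusted p = 0.0105), and the ligase gene Lig1 by −1.42 (adjusted p = 0.000223). The single-strand binding genes Rpa1 and Rpa2 changed by −0.87 (adjusted p = 0.0259) and −0.86 (adjusted p = 0.0112).

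In nucleotide supply, Rrm2 changed by −1.71 with an SE of 0.308 (adjusted p = 0.000782) and Dut by −1.61 with an SE of 0.257 (adjusted p = 0.000152), and Rrm1 and Tk1 by −1.24 (adjusted p = 0.00165) and −0.91 (adjusted p = 0.0481). The chromatin genes Chaf1a, Chaf1b, Uhrf1 and Dnmt1 changed by −1.49, −1.04, −1.61 and −1.02, with adjusted p-values of 0.000251, 0.0255, 0.000224 and 0.0095. E2f2 had the largest estimate of the 47, −2.27 with an SE of 0.308 (adjusted p = 1.29e-05). Ccne1 changed by −1.80 (adjusted p = 0.00102), Ccne2 by −1.31 (adjusted p = 0.0226), E2f1 by −1.34 (adjusted p = 0.00825) and E2f8 by −1.35 (adjusted p = 0.0049). The other 17 did not pass, with estimates from −1.06 (Fen1) to 0.05 (Orc1, the one above 0) and adjusted p-values from 0.0541 (Tyms) up. Without control iILC1 replicate 2, 14 members were called, and leaving out any other library of these groups gave 23 to 25. Over all genes, 0.93% were called lower without control iILC1 replicate 2, against 3.16% with all libraries. Without control iNK replicate 3, which left 23 members, 3.92% were, and without each of the others 1.19% to 3.01%.

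In cKO mice, 6 of the 47 were lower in iILC1 than in iNK by edgeR and 0 higher, against 1.66% of all genes called lower and 1.75% higher. B-lineage markers summed to 379 to 520 CPM in cKO iNK and 345 to 478 CPM in cKO iILC1. Of these 15 markers, 13 had an estimate below 0, with 5 called lower in iILC1 and 1 higher. Receptor background was 1686 to 2544 and 1539 to 2873 CPM, and stem and progenitor markers summed to 196 to 233 and 264 to 336 CPM. T cell markers summed to 517 to 661 and 477 to 936 CPM, with 3 of the 8 tested called higher in iILC1 and 0 lower. Erythroid markers summed to 325 to 937 and 295 to 557 CPM, with 12 of 15 estimates below 0 (median −0.79) and 0 called. The part of background and of these markers in the difference was not tested. The estimate was below 0 for 44, against 49.1% of all genes, with a median of −0.39, against 0.01 over all genes. The iILC1 libraries lay wholly below the iNK libraries for 13, against 3.08% of all genes. Whether the cell types differ by another amount in cKO than in control mice is what the genotype by cell type test asks, and it called 0 of the 47.

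The 6 genes were Cdc6, Rrm2, Uhrf1, E2f1, E2f2 and Ccne1, and in each the 4 cKO iILC1 libraries lay below the 4 cKO iNK libraries. Of these, E2f2 at 2.13, E2f1 at 2.19, Cdc6 at 2.28 and Ccne1 at 2.7 CPM per kilobase lay under the 95th percentile of receptor genes in cKO iILC1, 4.79, so that their levels there, too, lie within the range of background. E2f2 changed by −1.65 with an SE of 0.26 (adjusted p = 5.15e-05) and E2f1 by −1.53 with an SE of 0.272 (adjusted p = 0.000332). Ccne1 changed by −1.37 (adjusted p = 0.00318), Rrm2 by −1.20 (adjusted p = 0.00476), Uhrf1 by −1.10 (adjusted p = 0.002) and Cdc6 by −1.02 (adjusted p = 0.0158). Of the ring, Mcm6 had the lowest estimate, −0.72 (adjusted p = 0.058), and Mcm2 the highest, −0.32 (adjusted p = 0.766). Pcna gave −0.26 (adjusted p = 0.893), Dnmt1 −0.31 (adjusted p = 0.75), Tk1 −0.42 (adjusted p = 0.62), Ccne2 −0.48 (adjusted p = 0.705) and Mcm5 −0.40 (adjusted p = 0.557). The 41 that did not pass ran from −0.72 (Mcm6) to 0.67 (Fen1), and Fen1, Orc1 and Gins4 were above 0. Leaving out single libraries gave 5 to 10 called members, with 10 without cKO iILC1 replicate 1, and the background covariate gave 16, against 2.76% of all genes called lower. Over the left-out libraries that share was 1.18% to 2.4%, with 2.4% without cKO iILC1 replicate 1. The genotype and cell type comparisons share libraries, so their values are not independent of one another.

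**Figure D4:**
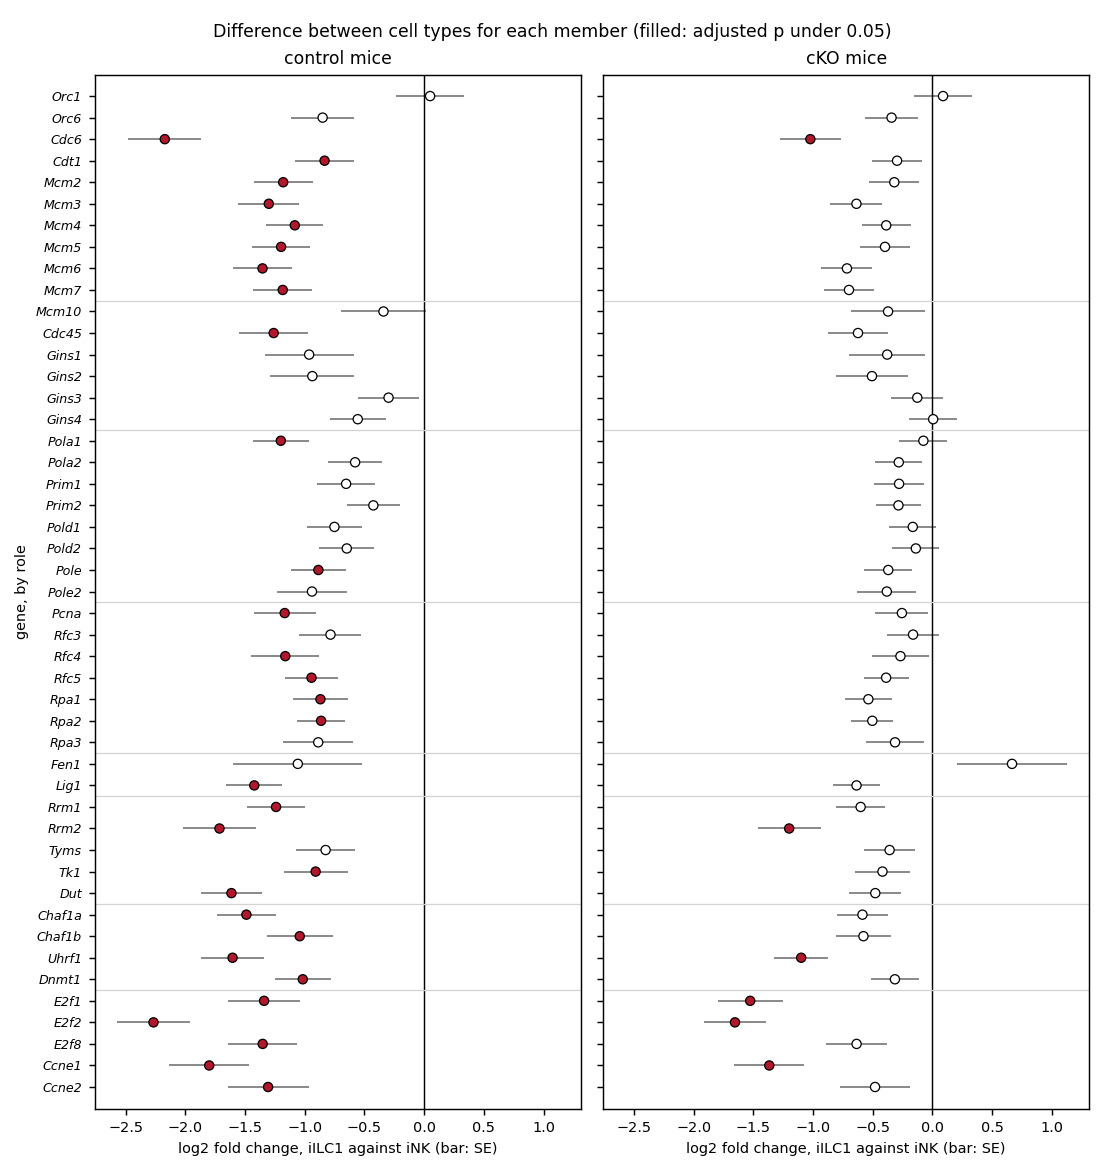
Log2 fold change of each of the 47 genes for iILC1 against iNK, in control mice on the left and cKO mice on the right on the same scale, with genes in rows by role, bars for SE and filled points for an adjusted p under 0.05. On the left 30 points are filled and on the right 6, all below 0.

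Other genes of the pathway were read from the same fit. Of all genes, 0.259% were called lower for genotype in iNK and 0.0259% for genotype in iILC1. Between cell types, 3.16% were called lower in control, and 1.66% lower and 1.75% higher in cKO. At an unadjusted p under 0.05, 4% were lower in iNK and 1.84% in iILC1, and 707 of 26990 were higher in iILC1. Of 27 other replication genes, 1 fell in cKO iNK, Gmnn, the inhibitor that keeps Cdt1 from relicensing origins (−1.02, adjusted p = 0.0483), and the median was −0.29. In control iILC1 against iNK, 10 of the 27 were lower, led by the histone chaperone gene Asf1b (−1.77, adjusted p = 0.000609), Hells, a chromatin remodeller (−1.29, adjusted p = 0.00157), the clamp loader gene Rfc2 (−1.06, adjusted p = 0.0034) and Gmnn (−1.27, adjusted p = 0.00438), and in cKO 2 were, Rfc2 (−0.67, adjusted p = 0.0372) and Asf1b (−0.94, adjusted p = 0.041). Of 25 other G1/S regulators, 0 of the 23 tested passed in either genotype comparison by edgeR (7 were lower in iNK, and 1 higher in iILC1, at an unadjusted p under 0.05), while in control iILC1 against iNK 3 were lower, Tfdp1, the E2F partner (−1.56, adjusted p = 0.000129), the kinase inhibitor gene Cdkn2c (−1.43, adjusted p = 0.00311) and Cdk4 (−0.97, adjusted p = 0.0176). In cKO, Tfdp1 was lower (−1.21, adjusted p = 0.000225) and the D cyclin gene Ccnd3 higher (0.76, adjusted p = 0.0433). The D cyclin Ccnd2 (−0.45), Ccnd3 (−0.68), Cdk6 (−0.26), the inhibitors Cdkn1b (−0.55) and Cdkn2c (−0.66) and the pocket protein gene Rbl2 (0.08) did not pass in cKO iNK, with adjusted p-values of 0.341 to 0.963. Ccnd2, Cdk6, Cdkn1b and Rbl2 passed in neither comparison of cell types, with estimates of −0.29, −0.46, −0.53 and 0.07 in control and 0.22, −0.38, 0.41 and 0.54 in cKO. Of 15 checkpoint genes, 0 passed in either genotype comparison by edgeR (4 and 1 were lower at an unadjusted p under 0.05), 2 were lower in control iILC1 against iNK, among them Usp1 (−1.15, adjusted p = 0.00316), and 1 was lower in cKO, the kinase gene Wee1 (−1.07, adjusted p = 0.00995).

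The 39 mitosis genes gave a comparison with the next phase of the cell cycle. In cKO iNK 2 fell, Mki67 (−1.21, adjusted p = 0.0292) and the spindle gene Tpx2 (−0.97, adjusted p = 0.0292), against 0.259% of all genes. The median was −0.61 against −0.73 for the 47 genes, and Cdk1, the kinase of mitosis, gave −0.61 (adjusted p = 0.517). For genotype in iILC1, edgeR called 0 of the 39, and 5 were lower at an unadjusted p under 0.05, against 1.84% of all genes. There the estimate was below 0 for 35 of the 39, with a median of −0.36, against 28 of the 47 genes and −0.09. For iILC1 against iNK, 33 of the 39 were lower in control and 28 in cKO, against 3.16% and 1.66% of all genes. Their medians were −1.41 and −1.14, against −1.04 and −0.39 for the 47. Among them were Racgap1 (−1.83 in control and −1.42 in cKO, adjusted p = 1.71e-06 and 2.92e-06), Kif11 (−1.95 and −1.68, adjusted p = 4.66e-05 and 1.82e-05) and Mki67 (−2.10 and −1.52, adjusted p = 3.4e-05 and 0.000182), which act in or mark cell division. Cdk1 was lower in control (−1.34, adjusted p = 0.00393) and did not pass in cKO (−0.76, adjusted p = 0.084). The difference between these lists was not tested.

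**Figure D5:**
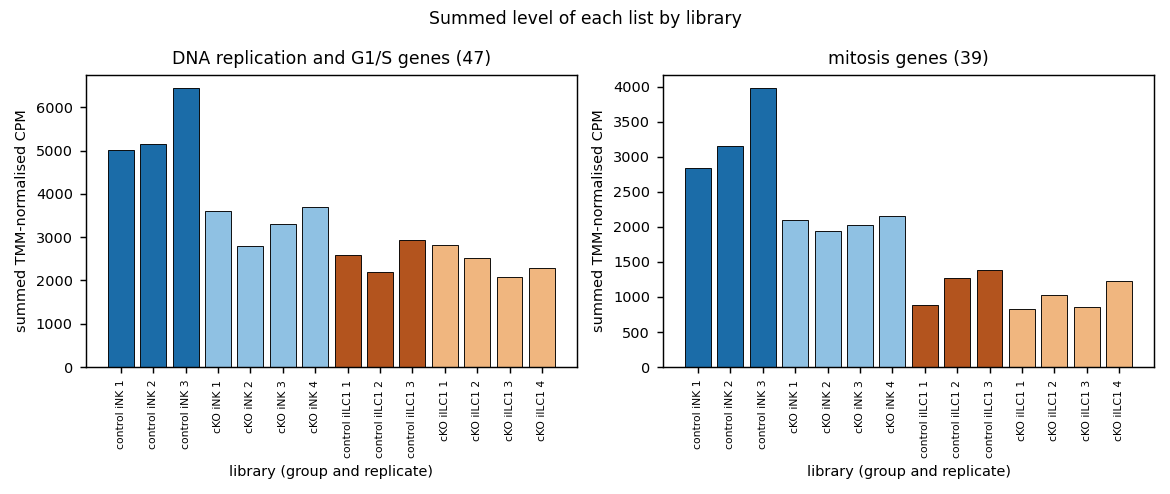
Summed CPM of the 47 genes and of the 39 mitosis genes in each library, as bars that start at 0, coloured by group. Both sums are highest in the 3 control iNK libraries, and in cKO the iNK and iILC1 bars overlap on the left and are apart on the right.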

How the data were processed

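Per the file headers, the deposited values are raw gene counts for Ensembl identifiers. The submitters' processing notes name Trimmomatic (0.33), HISAT2 (2.1.0), featureCounts in Subread (1.6.5) and build mm10. Annotation release, strand setting and the handling of multi-mapping reads are not given in the sources used here. The library kits, SMART-Seq v4 and Nextera XT, mark no strand. Of 46078 rows, 45143 matched a symbol.

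Genes were kept by filterByExpr (minimum count 10, minimum total 15), which left 26990, and TMM scaling was applied. All 14 libraries entered 1 fit with a mean for each of the 4 groups and no block. edgeR 4.0.16 (R 4.3.3) gave two-sided robust quasi-likelihood F tests, with Benjamini-Hochberg adjusted p-values read at 0.05. The SE of a fold change came from its F statistic. The script was tested on simulated data. DESeq2 1.42.0, other filters, scalings, blocks and left-out libraries were alternatives. No 2 replicates agreed within sampling noise (chi-square over its degrees of freedom at least 4.97).

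The 47 genes and all lists were chosen with earlier results of these data known. Values per library are given for each of the 47 called in any comparison and for Mcm2, Mcm5, Pcna, Rrm2, Tk1, E2f1, Ccne1, Ccne2, Dnmt1 and Cdc6. Up to 4 called genes per other list and comparison are named, with Mki67, Cdk1, Ccnd2, Ccnd3, Cdk6, Cdkn1b, Cdkn2c and Rbl2. Lists are described by counts and medians. Some genes that this rule would name are not reported here.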

Additional observations from a re-analysis of the deposited data

Results flagged for a closer look

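Over the 94 groups of 4 libraries that were checked (47 genes in each cKO group), 6 had a highest or lowest library far from the other 3, and chance flags about 1 in 20 groups. In cKO iNK, Gins1 was at 9.62 CPM in replicate 3 against 6.58 to 6.90 CPM in the others, and Rpa1 was at 221 CPM in replicate 1 against 155 to 165 CPM. Rrm2 and Dut were at 84.0 and 46.9 CPM in cKO iNK replicate 4, against 51.3 to 55.1 and 31.9 to 34.0 CPM. In cKO iILC1, Prim1 was at 28.2 CPM in replicate 1 against 39.1 to 40.3 CPM, and Rfc3 was at 16.4 CPM in replicate 3 against 27.2 to 29.1 CPM.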

How the results depend on the processing

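No setting tried gave a higher call among the 47 genes in any of the 5 comparisons. For genotype in iNK, against 10 called, DESeq2 called 23, the filter at 5 CPM 16, a fit of only the groups compared 18, the background covariate 24 and the fit without the 2 libraries lowest on the first principal component 16, with 0 to 9 over the libraries left out in turn. These 2 libraries were control iNK replicate 1 and cKO iILC1 replicate 1. That fit thus overlaps the one without control iNK replicate 1 alone, which called 9. For genotype in iILC1, against 0, the gene called was E2f1 in each case: 1 with DESeq2, with no filter, at 5 CPM, with the background covariate, and without the 2 libraries, and 0 to 1 over the libraries left out. For cell type in control, against 30, leave-outs gave 14 to 25. For cell type in cKO, against 6, DESeq2 called 10, the filter at 5 CPM 13, the background covariate 16 and the fit without the 2 libraries 10, with 5 to 10 over the leave-outs. The cause was not tested, and the calls over all genes moved too. Those called lower among all genes for genotype in iNK were 0.259%, against 0.767% with DESeq2, 1.03% at 5 CPM, 0.526% with only the groups compared, 0.867% with the background covariate and 0.452% without the 2 libraries. For cell type in cKO they were 1.66%, against 2% with DESeq2, 4.01% at 5 CPM, 2.76% with the background covariate and 2.57% without the 2 libraries. Over the libraries left out in turn, the share of all genes called lower was 0.137% to 0.2% for genotype in iNK. For cell type in control it was 0.93% to 3.92%, against 3.16% with all libraries, and for cell type in cKO 1.18% to 2.4%. The median over all genes moved from 0.06 to 0.17 in the iNK comparison without control iNK replicate 3, and from 0.16 to 0.0028 between control cell types with the background covariate.

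Replicate numbers are shared between groups, but the labels do not say that they pair libraries, and the deviations of same-numbered libraries correlated at −0.09 to 0.39 over the 6 pairs of groups, with no pair of groups having every correlation over 0.1. With the replicate block, 17 genes were called for genotype in iNK, 1 for iILC1, 37 for cell type in control and 9 in cKO, while the calls over all genes went from 110, 13, 1109 and 920 to 189, 38, 2328 and 1224.

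Near 0, estimates changed sign. The median of the 47 for genotype in iILC1 was 0.02 without control iILC1 replicate 3. For genotype in iILC1, Cdc6 became 0.0351 and Dnmt1 −0.0124 with the background covariate, and without the 2 libraries Cdc6 became 0.0665, Pcna −0.0591 and Dnmt1 −0.0018. Over the libraries left out in turn, the same estimate ran from −0.28 to 0.31 for Cdc6, from −0.169 to 0.0202 for Mcm5, from −0.0678 to 0.244 for Pcna and from −0.0247 to 0.153 for Dnmt1. The genotype by cell type estimate of E2f1 ran from −0.614 to 0.0153. The fit without robust estimation, added after seeing the data, called 9, 28 and 6 genes for genotype in iNK, cell type in control and cell type in cKO. Background limits the lowest members: of those called, E2f8 in cKO iNK, 6 of 30 in control iILC1 and 4 of 6 in cKO iILC1 lay under the 95th percentile of receptor genes.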

Other observations

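The 16 genes with an E2F-type match in the promoter and the 24 with a promoter and no match were set side by side, without a test. For genotype in iNK their median log2 fold changes were −0.73 and −0.76, with 2 and 8 called. Between cell types in control, the medians were −1.19 and −1.05, with 11 of 16 and 16 of 24 called.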
